A study of Mus musculus with 8 samples.

Results

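Cell cycle and DNA replication genes were examined in the middle colon of mice without Trim58 after chemically induced colitis. The 40 genes were taken from a list of names, and 38 of them had a probe set annotated to that gene alone among 22180 genes tested. Ccnb1 and Ccne2 had no such probe set, and their expression was not analysed here. The knockout (KO) group held 4 Trim58-/- mice and the wild type (WT) group 4 Trim58+/+ mice. All 8 were females of the strain C57BL/6-Trim58tm2313Arte, 9 weeks old, and the knockouts lack the gene completely. Trim58 encodes a tripartite motif protein that attaches ubiquitin to other proteins. Colitis was induced in all mice with 4% dextran sodium sulfate (DSS), a sugar polymer toxic to the colon lining, given in the drinking water over 7 days. Plain water followed over 5 days, and the colon was collected on day 12. Each mouse gave 1 whole-transcript Affymetrix array, and all values below are RMA signals on the log2 scale. No untreated colon was among the samples, so every comparison is between genotypes within colitis.

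Cell division runs through a fixed order of gene programmes. In G1, D-type cyclins and then cyclin E, with their kinases, inactivate the retinoblastoma protein and free E2F transcription factors, which switch on the enzymes of DNA synthesis. Later, the DREAM complex gives way to B-MYB and FOXM1, and the mitotic genes are switched on through a promoter element called the cell cycle genes homology region (CHR). In the colon, division is normally restricted to the lower crypt, and the epithelium is rebuilt by dividing crypt cells after DSS injury. Lymphocytes, fibroblasts and vessel cells of the injured wall divide as well. In whole tissue, fewer dividing cells and less RNA per cell cannot be told apart.

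The array medians lay between 5.73 and 5.83, and correlations between arrays over all probe sets lay between 0.972 and 0.989. Trim58 read 4.91, 5.37, 4.82 and 5.11 in KO replicates 1 to 4, against 5.22, 5.07, 5.18 and 5.03 in WT replicates 1 to 4, so its probe set did not separate the genotypes (limma adjusted p = 0.839) and does not check the labels. Markers of epithelium and smooth muscle were bright, with no epithelial marker below the 82.2 percentile and no smooth muscle marker below the 89.5 percentile of all genes. KO replicates 1, 2 and 4 carried signal of pancreatic acinar genes, with a list mean 4.34, 5.24 and 4.97 above the WT mean, and KO replicate 3 did not (-0.19). Values of the groups and of some single genes without those 3 arrays are therefore given below. The pancreatic list mean also served as a covariate. No WT array carried this signal, so that fit can hardly separate the covariate from genotype. Over all genes, 87 were higher and 41 lower in KO at an adjusted p under 0.05 by limma with Benjamini-Hochberg adjustment (0.392% and 0.185% of the genes tested, 0.577% in all).

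Promoter sequences were read to describe which elements the S-phase and the mitotic genes carry. RefSeq promoter windows (build GRCm38.p6, 250 bases before to 50 after the annotated start) were at hand for 32 of the 40 genes. They were searched on both strands for E2F sites (TTTCCCGC, TTTGGCGC, TTTCGCGC or TTTGCCGC), for CHR elements (TTTGAA or TTCGAA) and for the CCAAT box. E2F letters were found in 4 of 8 genes of the S-phase core (Mcm genes, Pcna and Rrm2), 50%, and in 1 of 16 mitotic genes, 6.25%, against 2.6% of all 27025 genes with a window. CHR letters were found in 12 of 16 mitotic genes, 75%, and in 2 of 8 S-phase core genes, 25%, against 21.7% of all genes. CCAAT was present in 8 of 8 S-phase core and 14 of 16 mitotic genes, against 41.1% of all genes. The 16 mitotic genes with a window include Ccnb1, whose expression was not analysed. These matches describe letters and do not show that a factor was bound. Windows of 6 genes are printed because their genes carry the S-phase and mitotic values below, 5′ to 3′ on the gene's strand, with the matched letters of either strand in capitals. TTCGAA reads the same on both strands.

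The windows shown here belong to the replication genes Mcm5, Mcm6 and Rrm2.
Mcm5, chr8:75109259-75109558, plus strand: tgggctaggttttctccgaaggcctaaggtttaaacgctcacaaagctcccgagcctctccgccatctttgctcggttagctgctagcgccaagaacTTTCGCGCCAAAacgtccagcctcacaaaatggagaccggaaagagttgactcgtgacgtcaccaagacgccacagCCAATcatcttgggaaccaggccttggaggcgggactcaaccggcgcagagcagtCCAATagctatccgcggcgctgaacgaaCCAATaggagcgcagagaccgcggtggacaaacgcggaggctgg
Mcm6, chr1:128359656-128359955, minus strand: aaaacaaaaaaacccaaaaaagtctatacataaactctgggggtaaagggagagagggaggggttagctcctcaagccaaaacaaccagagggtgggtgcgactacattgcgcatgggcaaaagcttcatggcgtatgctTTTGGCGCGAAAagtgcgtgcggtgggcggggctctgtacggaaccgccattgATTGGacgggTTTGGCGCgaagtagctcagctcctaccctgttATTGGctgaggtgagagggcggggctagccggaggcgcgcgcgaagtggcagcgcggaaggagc
Rrm2, chr12:24708004-24708303, plus strand: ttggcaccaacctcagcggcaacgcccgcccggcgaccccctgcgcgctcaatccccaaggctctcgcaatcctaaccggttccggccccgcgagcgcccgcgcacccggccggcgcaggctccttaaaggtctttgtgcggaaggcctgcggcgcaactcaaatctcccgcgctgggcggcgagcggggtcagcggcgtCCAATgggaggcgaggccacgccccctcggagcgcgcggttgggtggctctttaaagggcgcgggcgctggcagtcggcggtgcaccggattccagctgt

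The windows of the mitotic genes Cdk1, Ccnb2 and Top2a follow.
Cdk1, chr10:69352863-69353162, minus strand: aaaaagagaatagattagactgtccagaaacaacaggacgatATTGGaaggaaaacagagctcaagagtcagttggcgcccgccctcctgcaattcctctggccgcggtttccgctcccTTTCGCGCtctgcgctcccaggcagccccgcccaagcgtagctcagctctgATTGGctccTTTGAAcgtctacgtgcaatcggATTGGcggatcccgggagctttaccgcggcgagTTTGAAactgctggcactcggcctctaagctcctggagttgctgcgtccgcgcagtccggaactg
Ccnb2, chr9:70421505-70421804, minus strand: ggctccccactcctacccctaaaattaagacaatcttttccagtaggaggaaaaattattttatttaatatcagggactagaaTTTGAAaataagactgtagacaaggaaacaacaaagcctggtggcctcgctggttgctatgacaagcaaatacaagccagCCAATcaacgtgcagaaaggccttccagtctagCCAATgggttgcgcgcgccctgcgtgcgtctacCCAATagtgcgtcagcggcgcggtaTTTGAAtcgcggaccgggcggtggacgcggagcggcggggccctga
Top2a, chr11:99024140-99024439, minus strand: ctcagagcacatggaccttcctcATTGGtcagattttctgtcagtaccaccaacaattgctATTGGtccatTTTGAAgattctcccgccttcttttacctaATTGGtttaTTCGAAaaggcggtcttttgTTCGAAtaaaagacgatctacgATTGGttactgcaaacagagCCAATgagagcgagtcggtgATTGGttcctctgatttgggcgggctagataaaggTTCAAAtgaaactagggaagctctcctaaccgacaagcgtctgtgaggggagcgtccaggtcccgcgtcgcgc

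In Mcm5 and Mcm6, E2F letters of both strands overlapped in a stretch that starts 153 bases before the gene start in Mcm5 and 110 bases before it in Mcm6. Cdk1 held E2F letters 131 bases before the start, and CHR letters 71 and 15 bases before it. Ccnb2 held CHR letters 167 bases before the start and at base 5 after it, with CCAAT boxes 87, 54 and 21 bases before the start. In Top2a, CHR letters began 179, 140, 120 and 23 bases before the start, and CCAAT boxes were present on both strands. Rrm2 held a CCAAT box 50 bases before the start and none of the E2F letters searched.

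No single cell cycle gene passed the test over all genes. With limma, 0 of 38 had an adjusted p under 0.05, beside the 0.392% of all genes higher and 0.185% lower. At an unadjusted p under 0.05, 11 of 38 were higher in KO (28.9%, against 6.22% of all genes) and 1 was lower (2.63%, against 8.10%). The count of 11 was 7 without KO replicate 1 or KO replicate 2, and 2 with the pancreatic signal as covariate. Over all genes, the limma calls at the adjusted threshold went from 128 to 55, 43 and 2 in these fits, in the same order. The share of all genes at the unadjusted threshold was not counted in them. The fit with the pancreatic signal can hardly separate this covariate from genotype, and the member median in it was 0.18. The KO and WT arrays did not overlap in 9 members that were higher in KO (23.7%, against 3.79% of all genes) and in 1 that was lower (2.63%, against 5.02%). The difference KO minus WT was above 0 in 31 of 38 members (81.6%), against 46.1% of all genes. Its median was 0.16 over the members and -0.014 over all genes. The differences were small: the 95% interval of all 38 members lay within 2-fold in either direction, that of 34 lay within 1.5-fold, and Cdkn1a alone differed by 1.5-fold or more. The members were picked with earlier results of these data known and dividing cells express them together, so these shares are a description.

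**Figure D1:**
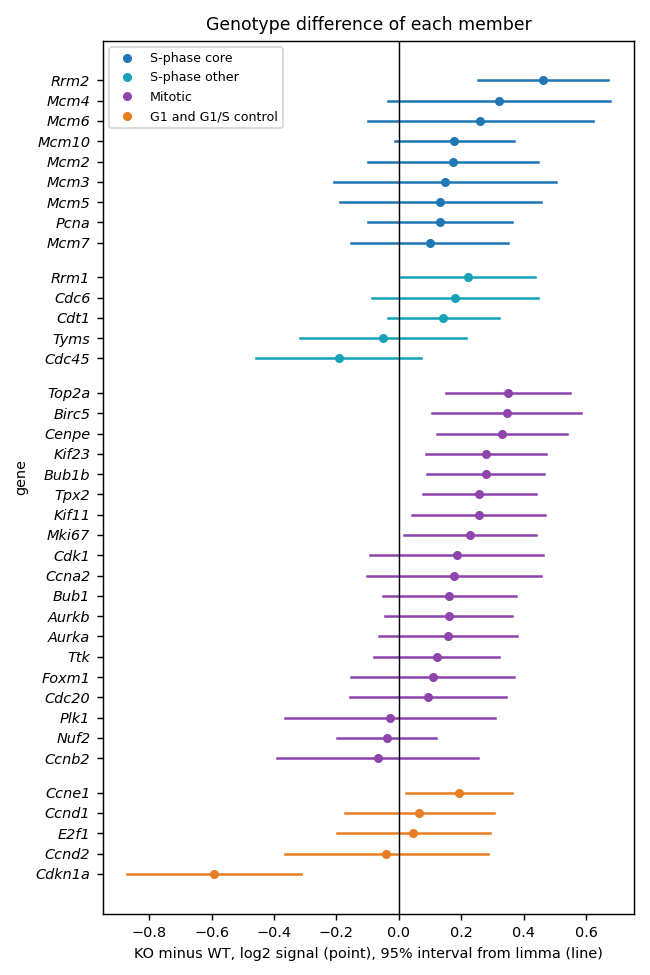
KO minus WT difference in log2 signal for 38 genes, grouped by role and sorted within it (points), with the 95% limma interval (lines). 31 of 38 points lie to the right of 0, and Cdkn1a lies farthest to the left at -0.59.

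Among the genes of DNA synthesis, Rrm2 had the largest difference. Rrm2 encodes the small subunit of ribonucleotide reductase, whose supply limits the making of deoxyribonucleotides in S phase. It read 7.01, 7.07, 6.85 and 6.83 in KO replicates 1 to 4, against 6.67, 6.42, 6.35 and 6.48 in WT replicates 1 to 4. All KO arrays lay above all WT arrays. The difference was 0.46 (95% interval 0.25 to 0.67), 1.38-fold, with a limma adjusted p = 0.0639 and an exact two-sided permutation p = 0.0286, the smallest that the 70 assignments of 4 of 8 arrays allow. The limma adjusted p was 0.0431 without WT replicate 1 and 0.0453 without the third of genes with the lowest signal, and lay between 0.0431 and 0.857 over 18 alternatives. KO replicate 3 against the 4 WT arrays gave an Rrm2 difference of 0.38. A second, dim Rrm2 probe set, brighter than 4.45% of all probe sets, had a difference of 0.064, and the mean of both probe sets gave 0.26. Rrm1, the large subunit of the same enzyme, read 8.72, 8.69, 8.67 and 8.53 in KO, against 8.54, 8.55, 8.44 and 8.19 in WT. Its difference was 0.22 (limma adjusted p = 0.335), and KO replicate 4 lay inside the WT range.

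The minichromosome maintenance genes Mcm2 to Mcm7 encode the ring-shaped helicase that opens DNA at replication origins. All 6 had a higher mean in KO, by 0.099 (Mcm7) to 0.32 (Mcm4), with limma adjusted p between 0.405 and 0.758. Mcm4 read 8.11, 8.14, 8.14 and 8.08 in KO, against 8.07, 8.03, 7.83 and 7.24 in WT. The groups did not overlap, but by a narrow margin, with the lowest KO array at 8.079 and the highest WT array at 8.074. The KO arrays lay together within an SD of 0.029, and the WT arrays spread over an SD of 0.38. Mcm6 read 8.31, 8.14, 8.17 and 7.98 in KO, against 8.20, 8.06, 7.92 and 7.37 in WT, and Mcm5 read 7.95, 7.76, 7.91 and 7.69 in KO, against 8.04, 7.79, 7.66 and 7.28 in WT. In each of the 6 genes WT replicate 4 was the lowest WT array and WT replicate 1 the highest. Without WT replicate 4 the Mcm4 difference was 0.14 in place of 0.32.

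Mcm2 read 7.78, 7.54, 7.74 and 7.61 in KO, against 7.71, 7.58, 7.56 and 7.14 in WT. Mcm3 read 7.52, 7.33, 7.47 and 7.40 in KO, against 7.64, 7.54, 7.09 and 6.85 in WT. Mcm7 read 7.85, 7.61, 7.70 and 7.65 in KO, against 7.86, 7.71, 7.44 and 7.41 in WT. All KO arrays lay inside the WT range for Mcm3 and Mcm7, and KO replicates 1 and 3 lay above it for Mcm2. Mcm10, which helps to start the helicase, read 6.95, 6.94, 6.82 and 6.72 in KO, against 6.80, 6.64, 6.70 and 6.56 in WT, a difference of 0.18 (limma adjusted p = 0.381). Pcna, the sliding clamp of DNA polymerases, read 9.78, 9.56, 9.78 and 9.71 in KO, against 9.78, 9.65, 9.51 and 9.35 in WT. Its difference was 0.13 (limma adjusted p = 0.626), with 95% limits of -0.098 and 0.36.

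Of the S-phase genes not yet described, Cdt1 and Cdc6 had a higher mean in KO, and Cdc45 and Tyms a lower one. Cdt1, a loading factor, read 6.98, 6.89, 6.98 and 6.99 in KO, against 6.93, 6.90, 6.76 and 6.68 in WT (difference 0.14, limma adjusted p = 0.469). Cdc6, its partner in loading, had a difference of 0.18 (limma adjusted p = 0.558). Cdc45, which travels with the active helicase, had a lower mean in KO and read 6.19, 6.15, 6.38 and 6.37, against 6.81, 6.30, 6.41 and 6.34 in WT. Its difference was -0.19 (limma adjusted p = 0.518), and WT replicate 1 stood above the 7 other arrays. Tyms, thymidylate synthase, had a difference of -0.050 (limma adjusted p = 0.899).

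The mitotic genes had the largest share of members at an unadjusted p under 0.05, 8 of 19 higher (42.1%, against 6.22% of all genes) and 0 lower (against 8.10%), with 0 past the adjusted threshold. Top2a, the topoisomerase that untangles chromosomes before they separate, read 8.85, 8.86, 8.87 and 8.70 in KO, against 8.55, 8.40, 8.62 and 8.31 in WT. All KO arrays lay above all WT arrays, by a mean of 0.35 (95% interval 0.15 to 0.55; limma adjusted p = 0.112). Cenpe, a motor at the kinetochore that moves chromosomes to the spindle equator, read 7.66, 7.77, 7.52 and 7.60 in KO, against 7.36, 7.23, 7.48 and 7.16 in WT. The groups again did not overlap (difference 0.33, limma adjusted p = 0.139). Birc5, survivin of the chromosomal passenger complex, read 6.33, 6.50, 6.19 and 6.21 in KO, against 5.71, 5.98, 6.06 and 6.10 in WT, a difference of 0.35 (limma adjusted p = 0.171). Bub1b, a kinase-like protein of the spindle checkpoint, read 7.19, 7.27, 7.08 and 7.05 in KO, against 6.83, 6.74, 6.92 and 6.97 in WT, a difference of 0.28 (limma adjusted p = 0.160).

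Kif23 and Tpx2 were the other mitotic genes whose genotypes did not overlap. Kif23, a motor of cytokinesis, had a difference of 0.28 (limma adjusted p = 0.169), and Tpx2, which activates Aurora A on the spindle, one of 0.26 (limma adjusted p = 0.173). Kif11, the motor that pushes spindle poles apart, had a difference of 0.26 (limma adjusted p = 0.254). Mki67, the Ki-67 antigen that coats mitotic chromosomes and marks dividing cells in histology, read 9.71, 9.73, 9.73 and 9.51 in KO, against 9.47, 9.50, 9.57 and 9.23 in WT. KO replicate 4 lay inside the WT range, and the difference was 0.23 (limma adjusted p = 0.306).

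The kinase and the measured cyclins that drive entry into mitosis differed less over all 8 arrays. Ccnb1, cyclin B1, was not measured. Cdk1, the mitotic kinase, read 7.47, 7.69, 7.41 and 7.36 in KO, against 7.18, 7.09, 7.28 and 7.63 in WT. WT replicate 4 lay above 3 of the 4 KO arrays, and the difference was 0.19 (limma adjusted p = 0.560). Ccna2, cyclin A2, had a difference of 0.18 (limma adjusted p = 0.586) and Ccnb2, cyclin B2, one of -0.068 (limma adjusted p = 0.886). Without WT replicate 4 the differences were 0.30 for Cdk1, 0.29 for Ccna2 and 0.083 for Ccnb2, beside 0.30 for Top2a. Aurka and Aurkb, the Aurora kinases of spindle and centromere, and the checkpoint kinases Bub1 and Ttk had differences of 0.16, 0.16, 0.16 and 0.12, with limma adjusted p between 0.478 and 0.601. Foxm1, the transcription factor of mitotic genes, had a difference of 0.11 (limma adjusted p = 0.741). Cdc20, which activates the anaphase-promoting complex, had one of 0.093 (limma adjusted p = 0.770). The means of Plk1, a mitotic kinase, and Nuf2, a kinetochore subunit, differed by -0.028 and -0.039 (limma adjusted p = 0.959 and 0.864).

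Cdkn1a differed in the opposite direction. It encodes p21, an inhibitor of cyclin-dependent kinases that p53 and other signals induce and that differentiated colon epithelium also expresses. It read 9.68, 9.76, 10.04 and 10.07 in KO, against 10.67, 10.55, 10.20 and 10.51 in WT. All KO arrays lay below all WT arrays, with a difference of -0.59 (95% limits -0.87 and -0.31), 1.51-fold lower. Its limma adjusted p = 0.0739 missed the threshold, and its exact two-sided permutation p was 0.0286, the smallest possible here. Leaving out single arrays gave -0.69 to -0.52, and KO replicate 3 against the 4 WT arrays gave -0.44. The limma adjusted p lay between 0.0503 and 0.863 over 18 alternatives.

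No G1 cyclin passed the adjusted threshold, and Ccne1 had the smallest p of them. Ccne1, cyclin E1, read 6.65, 6.52, 6.54 and 6.40 in KO, against 6.38, 6.34, 6.34 and 6.29 in WT. The groups did not overlap, and the difference was 0.19 (limma adjusted p = 0.283). Ccnd1, cyclin D1, read 9.08, 9.06, 9.19 and 8.83 in KO, against 9.04, 9.11, 9.01 and 8.73 in WT, a difference of 0.066 (limma adjusted p = 0.844). Ccnd2, cyclin D2, read 10.04, 9.96, 10.18 and 10.13 in KO, against 10.09, 10.50, 10.18 and 9.70 in WT, a difference of -0.040 (limma adjusted p = 0.938). E2f1, an activating E2F factor, had a difference of 0.046 (limma adjusted p = 0.900). The 95% limits were -0.17 and 0.30 for Ccnd1, -0.37 and 0.29 for Ccnd2 and -0.20 and 0.29 for E2f1, so differences of 1.5-fold lay outside them.

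**Figure D2:**
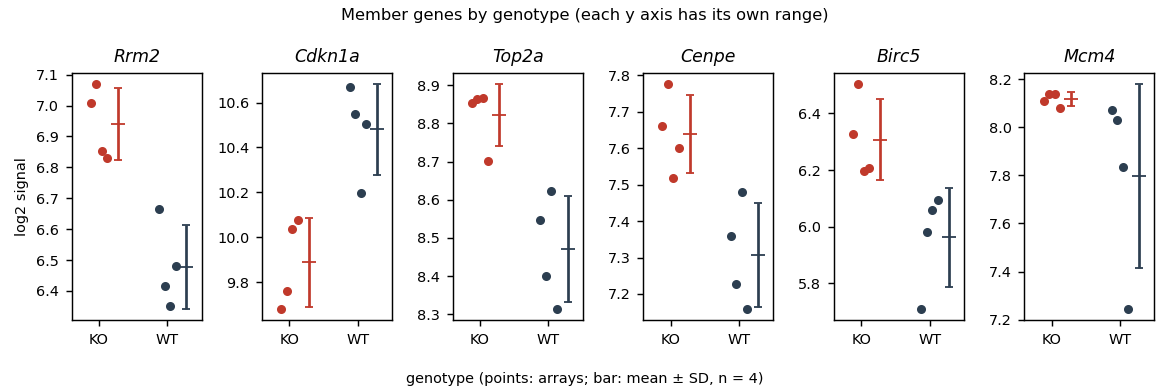
Log2 signal of 6 genes in each array (points) with the mean and SD of each genotype (bars, n = 4). Rrm2, Top2a, Cenpe, Birc5 and Mcm4 lie higher and Cdkn1a lower in KO without overlap. For Mcm4 the lowest KO array (8.079) is barely above the highest WT array (8.074). The Mcm4 arrays of KO lie within an SD of 0.029, and the lowest WT array is at 7.24.

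The S-phase and the mitotic genes had nearly the same median difference between the genotypes. The median difference was 0.17 over the 9 S-phase core genes and 0.18 over the 19 mitotic genes. Relative to the WT mean, the S-phase core stood at 0.31, 0.18, 0.23 and 0.13 in KO replicates 1 to 4, against 0.25, 0.10, -0.049 and -0.31 in WT replicates 1 to 4. The mitotic genes stood at 0.18, 0.28, 0.16 and 0.078 in KO, against -0.073, -0.085, 0.0092 and 0.15 in WT. For a score per array, each gene was set relative to its mean over the 8 arrays and the mitotic average was subtracted from the S-phase core average. This score was 0.11, -0.12, 0.052 and 0.035 in KO, against 0.31, 0.17, -0.076 and -0.48 in WT, with a mean of 0.018 ± 0.10 in KO and -0.018 ± 0.35 in WT (SD, n = 4 each). All KO arrays lay inside the WT range, and the difference of 0.035 was smaller than the spread in either genotype.

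**Figure D3:**
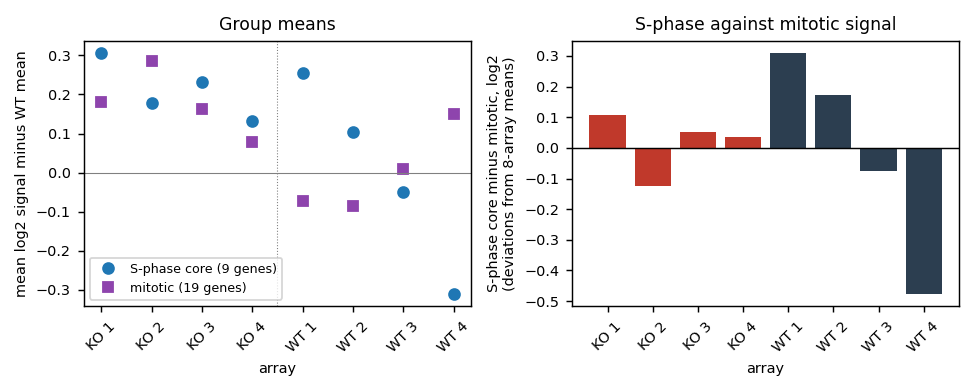
Left, the mean of the S-phase core and of the mitotic genes in each array relative to the WT mean (log2). Right, the S-phase core minus the mitotic deviation in each array (log2). WT replicates 1 and 4 lie at the ends, 0.31 and -0.48, and the KO arrays lie between -0.12 and 0.11.

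The balance of the programmes varied more among the WT mice than among the KO mice, with no test of the difference in spread. WT replicates 1 and 4, the ends of the score above, were picked from the values of these same genes. Genes of a programme are expressed together in a mouse, so the counts below are a description. WT replicate 1 was the highest WT array in 9 of 9 S-phase core genes and 13 of 14 S-phase genes in all, against 24.3% of all genes, and the highest in 1 of 19 mitotic genes. WT replicate 4 was the lowest WT array in 8 of 9 S-phase core genes, against 29.2% of all genes, and the highest in 13 of 19 mitotic genes, against 30.2%. From WT replicate 4 minus WT replicate 1, the S-phase core had a median difference of -0.57 with 9 of 9 genes below 0, the mitotic genes one of 0.18 with 15 of 19 above 0, and all genes one of 0.0002. The 4 mitotic genes below 0 were Top2a, Mki67, Cenpe and Aurkb, and the lowest WT value of Top2a, Mki67 and Cenpe was in WT replicate 4. Over the 38 members, the WT SD exceeded the KO SD in 32 (84.2%), against 58.5% of all genes, with a median SD of 0.11 in KO and 0.18 in WT. Such patterns were not limited to cell cycle genes. WT replicate 1 was the highest WT array in 8 of 8 B cell and 1 of 9 epithelial markers. WT replicate 4 was the highest in 8 of 9 monocyte and macrophage and 0 of 8 B cell markers. The WT SD was the larger in 8 of 8 B cell and 2 of 10 neutrophil markers.

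**Figure D4:**
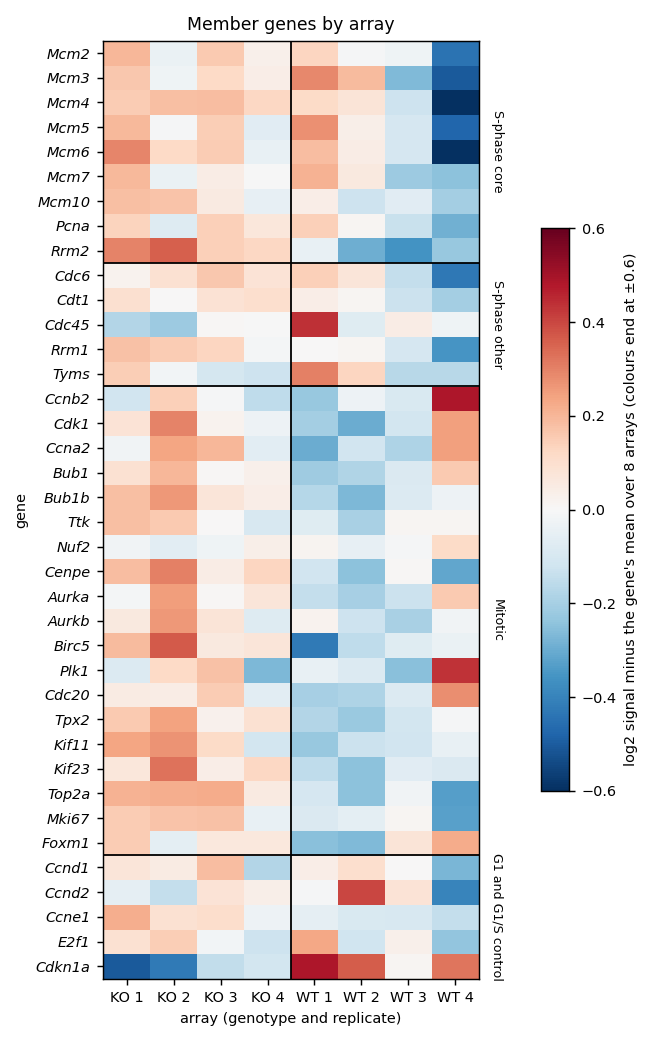
Log2 signal of 38 genes (rows, grouped by role) in each array (columns) minus the gene's mean over the 8 arrays, with colours ending at ±0.6. WT replicate 4 is low for the Mcm genes and high for Ccnb2, Cdk1, Ccna2, Plk1 and Cdc20, and the KO columns are low for Cdkn1a.

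WT replicate 4 had the largest influence of the 8 arrays on both group shifts. Without it, the median difference was 0.059 for the S-phase core and 0.24 for the mitotic genes, and the S-phase minus mitotic difference was -0.12. Without WT replicate 1 the same 3 values were 0.25, 0.15 and 0.14. With both arrays left out, an alternative chosen after these values were seen, the medians were 0.13 and 0.24. KO replicate 3 alone, the KO array at the WT level of pancreatic acinar genes, gave 0.21 for the S-phase core and 0.16 for the mitotic genes, close to the values from all arrays. That comparison has a single KO array, so its spread comes from the 4 WT arrays alone and its p-values assume that KO arrays vary like them. No count of members is drawn from it.

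**Figure D5:**
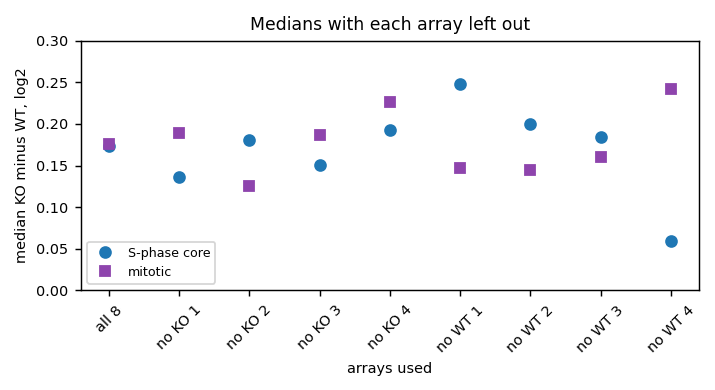
Median KO minus WT difference (log2) of the S-phase core and of the mitotic genes with all 8 arrays and with each array left out. The S-phase median is lowest, 0.059, and the mitotic median highest, 0.24, without WT replicate 4.

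Other genes of the pathway, in 6 lists, gave 183 measured genes, of which 1 was higher and 0 lower at the adjusted threshold, where 0.392% and 0.185% of all genes were. At an unadjusted p under 0.05, 23 were higher (12.6%, against 6.22% of all genes) and 5 lower (2.73%, against 8.10%). The called gene was Ctps, cytidine triphosphate synthase, in the list of nucleotide supply (1 of 18 higher, 0 lower). It read 8.67, 8.76, 8.58 and 8.44 in KO, against 8.08, 7.92, 8.0 and 7.83 in WT. Ctps rose by 0.65 (95% interval 0.45 to 0.86), 1.57-fold, with a limma adjusted p = 0.0166. The call held in 12 of 18 alternatives, with differences of 0.60 to 0.71 and limma adjusted p between 0.0114 and 0.664. By limma adjusted p, the call was lost without KO replicate 1 (0.0585), KO replicate 2 (0.0546) or WT replicate 2 (0.0756). The same held without WT replicates 1 and 4 (0.0714). It was also lost with the pancreatic covariate (0.605), where the difference was 0.62, and with KO replicate 3 alone, where the difference was 0.62. Mthfd2, a mitochondrial folate enzyme that feeds nucleotide synthesis, had a difference of 0.59 (limma adjusted p = 0.0898), and Slc29a1, a nucleoside transporter, one of -0.28 (limma adjusted p = 0.312). The list median was 0.042.

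Of 42 origin licensing and replication fork genes, 0 passed the adjusted threshold. At an unadjusted limma p under 0.05, 4 were higher (9.52%, against 6.22% of all genes) and 0 lower (against 8.10%). Fen1, the flap endonuclease that trims Okazaki fragments, read 6.34, 6.43, 6.26 and 6.30 in KO, against 6.03, 5.98, 5.95 and 5.95 in WT. The groups did not overlap (difference 0.35, limma adjusted p = 0.0634). Cdc7, the kinase that fires origins, and Dbf4, its activating subunit, stood 0.40 and 0.42 higher on average (limma adjusted p = 0.141 and 0.0995). The list median was 0.061. Of 55 kinetochore, spindle and cytokinesis genes, 0 passed the adjusted threshold. At an unadjusted p under 0.05, 10 were higher (18.2%, against 6.22% of all genes) and 2 lower (3.64%, against 8.10%). The lead genes were Incenp, the scaffold of the passenger complex (0.40, limma adjusted p = 0.0832), Cep55 of the midbody (0.32, limma adjusted p = 0.0942) and Smc2 of condensin (0.35, limma adjusted p = 0.120). That list's median was 0.083, with 44 of 55 genes above 0.

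The WT pattern was seen in part in these lists. Their genes are not among the 40, but they belong to the same programmes and were read on the same arrays. The counts are therefore a description and no separate check. WT replicate 1 was the highest WT array in 26 of 42 replication genes (24.3% of all genes), and WT replicate 4 the highest in 38 of 55 kinetochore and spindle genes (30.2% of all genes). WT replicate 4 was the lowest in 17 of 42 replication genes (29.2% of all genes), and the mean of that list was lowest in WT replicate 3, at -0.076, beside -0.071 in WT replicate 4. The replication list minus the kinetochore and spindle list was 0.040, -0.093, 0.021 and -0.0077 in KO, against 0.19, 0.078, -0.037 and -0.19 in WT. The KO arrays again lay inside the WT range.

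Of 13 genes of histones, chromatin, microtubules and the nuclear envelope, 0 passed the adjusted threshold. At an unadjusted limma p under 0.05, 3 of them were higher (23.1%, against 6.22% of all genes). Lmnb1, lamin B1 of the nuclear envelope, led them (0.38, limma adjusted p = 0.125). Hells, a chromatin remodeller, differed by 0.37 (limma adjusted p = 0.319), and the histone chaperone gene Asf1b by 0.26 (limma adjusted p = 0.345). Of 33 cyclin, kinase, E2F and DREAM regulators, 0 passed and 1 was higher at an unadjusted p under 0.05 (3.03%, below the 6.22% of all genes), Skp2, a subunit of the ligase that degrades the inhibitor p27 (0.20, limma adjusted p = 0.266). E2f4, the repressive E2F of DREAM, differed by -0.22 (limma adjusted p = 0.370), a direction that turned to 0.053 with KO replicate 3 alone and to 0.050 with the pancreatic covariate. Lin52, a core DREAM subunit, differed by -0.19 (limma adjusted p = 0.387). Of 22 other inhibitors of the cell cycle and p53 targets, 0 passed, and 1 was higher (4.55%, against 6.22% of all genes) and 2 lower (9.09%, against 8.10%) at an unadjusted p under 0.05. Cdkn2b, the inhibitor p15, read 8.19, 7.90, 8.14 and 8.39 in KO, against 8.46, 8.60, 8.57 and 8.61 in WT, without overlap (difference -0.40, limma adjusted p = 0.115). The p53 targets Perp and Aen differed by -0.24 and 0.24 (limma adjusted p = 0.255 and 0.297), in opposite directions, and the list median was -0.020.

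Markers of other cells moved with the genotype beside the cell cycle genes. Over all genes, 6.22% were higher and 8.10% lower at an unadjusted p under 0.05 by limma. Past the adjusted threshold 0.392% were higher and 0.185% lower, and 46.1% had a difference above 0. All 8 measured B cell markers were higher in KO at an unadjusted p under 0.05, 1 of them (Cr2) past the adjusted threshold, and their mean signal per array lay between 7.69 and 8.31 in KO and between 6.24 and 7.61 in WT. Markers of germinal centre B cells, which divide rapidly, had 0 of 6 at an unadjusted p under 0.05 and 0 past the limma adjusted threshold, with a mean signal between 5.92 and 6.10 in KO and between 5.83 and 6.11 in WT. Neutrophil markers, of a cell that no longer divides, were higher in 8 of 10 past the adjusted threshold, with means between 7.63 and 8.46 in KO and between 5.70 and 6.29 in WT. Of 8 fibroblast markers, 1 passed and 5 were higher at an unadjusted p under 0.05, with means between 9.80 and 10.21 in KO and between 9.38 and 9.83 in WT. Of 8 crypt base stem cell markers, 0 passed with limma, and 1 was higher (Olfm4) and 2 lower (Axin2 and Ascl2) at an unadjusted p under 0.05, with means between 6.51 and 6.67 in KO and between 6.43 and 6.79 in WT. Of 9 epithelial markers 0 passed at either threshold. In 8 of the 9 the difference lay below 0, and 2 were lower in KO without overlap (22.2%, against 5.02% of all genes). The list means lay between 10.51 and 10.66 in KO and between 10.56 and 10.75 in WT.

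The other marker lists also differed in part. Beside them, 6.22% of all genes were higher and 8.10% lower at an unadjusted p under 0.05, and 46.1% had a difference above 0. At the limma adjusted threshold 0.392% of all genes were higher and 0.185% lower. Of 8 smooth muscle markers, 8 lay below 0 and 5 were lower at an unadjusted p under 0.05, with 0 past the limma adjusted threshold and means between 10.62 and 11.20 in KO and between 10.99 and 11.41 in WT. Of 9 markers of posterior colon position, 9 lay below 0, 4 were lower at an unadjusted p under 0.05 and 0 passed the limma adjusted threshold, with means between 5.78 and 6.24 in KO and between 6.17 and 6.34 in WT. Of 6 plasma cell markers, 3 were lower at an unadjusted p under 0.05 and 0 passed with limma, with means between 7.30 and 7.75 in KO and between 7.58 and 8.17 in WT. Of 9 monocyte and macrophage markers, 1 passed and 4 were higher at an unadjusted p under 0.05, with means between 8.49 and 8.97 in KO and between 7.83 and 8.89 in WT. Of 7 endothelial markers, 3 were higher at an unadjusted p under 0.05 and 0 passed with limma, with means between 7.11 and 7.51 in KO and between 7.04 and 7.32 in WT. Of 7 T cell markers, 1 was higher at an unadjusted p under 0.05 and 0 passed with limma, with means between 6.16 and 6.68 in KO and between 5.88 and 6.68 in WT. The part of any of these cells, and of the site sampled along the colon, in the cell cycle result was not tested.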

How the data were processed

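Each of 8 mice gave 1 array from total RNA of the middle colon, of which 200 ng was used, per the labels' protocols. The deposited values are log2 signals that the authors computed by RMA in Affymetrix Expression Console 1.4, per the submitters' processing notes. Probe filters, scan batches and the genome build were not found there. RMA compresses differences between dim probe sets. The number of arrays limits the precision.

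Of 41345 probe sets, 23521 carried 1 gene symbol, 1814 several and 16010 none. Those with 1 symbol were named by Entrez identifier (23328 were found in the GRCm38.p6 gene table). Each gene was read from its brightest such probe set on average, which gave 22180 genes and no filter on dim ones. The linear model of limma 3.58.1 (R 4.3.3) held genotype alone, and its p-values were adjusted by Benjamini-Hochberg across the 22180 genes at a threshold of 0.05. The code was tested on simulated data. For single genes, the 70 ways of assigning arrays to genotypes gave an exact permutation p, two-sided. Group shifts and scores carry no test.

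The members, the lists (195 pathway genes with 183 measured, 119 marker genes with 108 measured) and the comparisons were chosen with earlier results of these data known. Arrays are printed for Mcm2 to Mcm7, Pcna, Rrm2, the G1 cyclins, Mki67, Cdk1, Cdkn1a and the 3 members with the smallest p in each role, and the 3 genes with the smallest p are named from each pathway list. The array values of Birc5, Ctps, Fen1 and Cdkn2b, and the marker names Cr2, Olfm4, Axin2 and Ascl2, were chosen after their values were seen. The labels name no pairs, so same-numbered replicates were not treated as pairs. Their deviations correlated between -0.16 and 0.052, beside -0.11 to 0.12 for differently numbered ones. With 4 arrays in each group these correlations cannot show whether mice were paired. Alternatives were other variance models, normalizations, filters and probe set rules, the replicate block, each array left out, and the pancreatic signal as covariate or with its arrays left out.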

Additional observations from a re-analysis of the deposited data

Results flagged for a closer look

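In 3 of 76 groups of 4 arrays, 1 array stood far from the other 3 by Dixon's criterion at 95%. Over all genes 5.75% of such groups did so, and chance gives about 1 in 20. Top2a was 8.70 in KO replicate 4, against 8.85 to 8.87 in the other KO arrays, and Mki67 was 9.51 there, against 9.71 to 9.73. Cdt1 was 6.89 in KO replicate 2, against 6.98 to 6.99 in the other KO arrays.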

How the results depend on the processing

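Over 18 alternatives the member median lay between 0.14 and 0.20, and 30 of 38 members kept their direction. The 128 genes called by limma over all genes became 64 with the replicate block, 199 with array weights, 203 without the third of genes with the lowest signal, 28 without WT replicates 1 and 4 (chosen after seeing the data), 14 with KO replicate 3 alone and 2 with the pancreatic covariate. With single arrays left out they were 25 to 252: 55 without KO replicate 1, 43 without KO replicate 2, 252 without KO replicate 3, 25 without WT replicate 2, 78 without WT replicate 3 and 65 without WT replicate 4. Members called were 0 to 1 with single arrays left out and 1 (Rrm2) without the third of genes with the lowest signal. With the replicate block 0 members were called, and 12 were higher at an unadjusted limma p under 0.05. That count was 11 with all arrays, 7 to 13 with single arrays left out (7 without KO replicate 1 or 2) and 2 with the pancreatic covariate. The share of all genes beside it was counted with all arrays only, 6.22%. Leaving out single arrays gave S-phase minus mitotic differences of -0.12 to 0.14, S-phase medians of 0.059 to 0.25 and mitotic medians of 0.13 to 0.24.

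Of the named genes, 8 members and E2f4 turned their sign in at least 1 alternative. With KO replicate 3 alone and with the pancreatic covariate, Plk1 was 0.16 and 0.15, Ccnd2 0.061 and 0.050, and E2f4 0.053 and 0.050. Plk1 was also 0.022 with array weights. Without WT replicates 1 and 4, Plk1 was 0.15, Ccnb2 0.027, Nuf2 0.0086 and Ccnd1 -0.020. With single arrays left out, Mcm5 ran from -0.0033 to 0.25, Tyms from -0.11 to 0.043, Ccnb2 from -0.16 to 0.083, Plk1 from -0.12 to 0.11, Ccnd1 from -0.015 to 0.14, Ccnd2 from -0.18 to 0.088 and E2f1 from -0.025 to 0.13. Rrm2 lay between 0.26 (mean of both probe sets) and 0.56. The causes were not tested.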
